A study of Arabidopsis thaliana with 6 samples.

Results

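The regions described here are places in Arabidopsis thaliana promoters where methylation in the CG context differed between the mutant rbp-ko-1 and the wild-type accession Col-0, and where no other kind of methylation difference was called. They were taken from the authors' list of differentially methylated regions, in which each region is called in 1 of 3 contexts, CG, CHG or CHH, with H standing for A, C or T. A region was kept if it was called in CG, started more than 3 Mb from the approximate centromere position of its chromosome, overlapped no CHG or CHH region, and was annotated by the authors to a promoter but to no exon, intron or UTR. Of the 9213 regions in the list, 266 met this rule. The rule used position, context and annotation, and neither the level nor the direction of the difference.

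The study sequenced 6 bisulfite-treated genomic DNA libraries, 3 from Col-0 and 3 from rbp-ko-1, also called KO27, in which the gene of the RNA-binding protein RBP45D (AT5G19350) is mutated. Both genotypes were grown on soil in long days (16 h light, 8 h dark) up to an age of 26 days. The labels name no tissue, and a level is an average over all cells sampled, so a difference in every cell and a difference in some cells cannot be told apart. Only 1 mutant line was sequenced, so anything else particular to that line cannot be told apart from the mutation. The list gives 1 mean level per genotype and no value per library, no read count and no coverage. The depth behind each level is therefore unknown, and no level below carries an SD. Whether the difference of any single region exceeds the spread between libraries was not tested.

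In plants, methylation of CG sites is copied after DNA replication by the maintenance methyltransferase MET1, because the site reads the same on both strands. A level can be inherited for generations. CHH methylation is not copied in this way and is set anew. Only part of it is set by RNA-directed DNA methylation, in which small RNAs guide a methyltransferase to matching DNA. CG methylation without the other contexts is typical of the bodies of active genes. Promoters of active genes usually carry little methylation, and dense promoter methylation is known from silenced genes and nearby transposons. The series title places RBP45D in RNA-directed DNA methylation and in the timing of flowering under heat.

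Most of the promoter regions had less CG methylation in the mutant. Of the 266 regions, 219 were lower in rbp-ko-1 and 47 were higher. The lower share was 82.3%, with an exact Clopper-Pearson 95% interval of 77.2 to 86.7% that covers counting error only. Among all CG regions of the list the lower share was 74.7%, and among the CG regions of the arms that overlapped no CHG or CHH region it was 70.5%. By chromosome the share ranged from 77.1% of 48 regions on chromosome 3 to 84.8% of 33 on chromosome 4. It was 86.4% of the 118 regions that lay 3 to 6 Mb from the centromere position, 78.7% of the 75 at 6 to 9 Mb and 79.5% of the 73 farther out, with intervals that overlap.

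The lower regions went from intermediate CG methylation in wild-type plants to little in the mutant. Their median level was 37.8% in Col-0, with quartiles of 22.4 and 58.9%, and 7.46% in rbp-ko-1, with quartiles of 1.57 and 23.4%. The median difference was −25.7 percentage points, and single regions ranged from −72.7 to −0.817 points. The higher regions had a median of 22.1% in wild-type plants and 54.9% in the mutant. Their median difference was 23.5 points, with a range of 4.72 to 63.3 points. Both kinds were short. The median was 99 bp with 9 CG cytosines for the lower regions, and 89 bp with 8 cytosines for the higher ones.

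**Figure D1:**
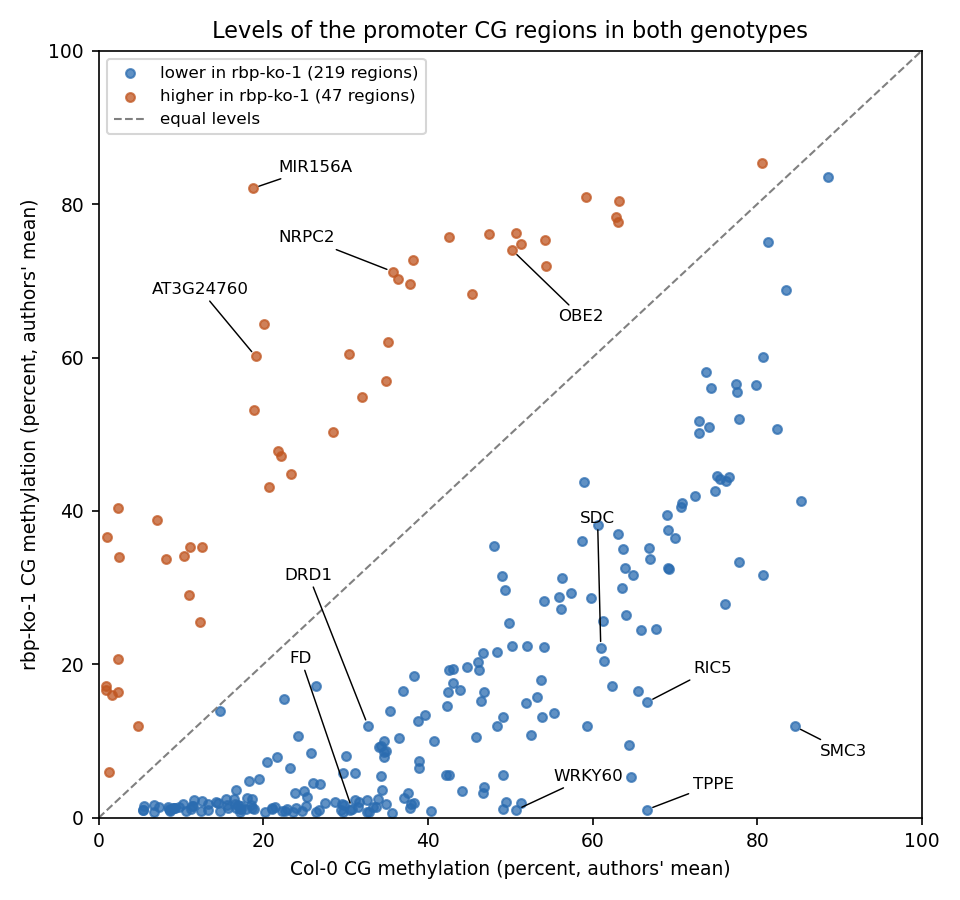
CG methylation of each of the 266 promoter regions in Col-0 (horizontal axis, percent) and rbp-ko-1 (vertical axis, percent), each point being the authors' mean for that genotype. Lower regions with 10 to 50% in Col-0 lie mostly along the bottom of the plot, while those above 50% in Col-0 mostly keep part of their level.

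The lower regions differed by the level they had in Col-0. Of the 133 lower regions with 10 to 50% methylation in Col-0, 101 were under 10% in rbp-ko-1 and 55 of these were under 2%. Their medians were 30.02% in wild-type plants and 2.42% in the mutant. The ratio of the rbp-ko-1 to the Col-0 level, taken region by region, had a median of 0.132. Of the 72 lower regions above 50% in Col-0, 53 were at 10 to 50% in rbp-ko-1, 14 were still above 50% and 5 were under 10%. Their medians were 66.6% and 32.5%, and the median of their ratios was 0.506. The remaining 14 lower regions started under 10%, with a median of 8.49%, and all 14 were under 2% in rbp-ko-1. In all, 120 of the 219 lower regions, or 54.8%, were under 10% in the mutant. These classes share the Col-0 value with the difference itself and are a description.

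Among the 47 higher regions, 16 went from 10 to 50% in wild-type plants to above 50% in the mutant. A further 11 started under 10% and ended at 10 to 50%. The other 10 that were already above 50% in Col-0 stayed above it, 9 stayed at 10 to 50%, and 1 stayed under 10%. The region with the largest relative increase lay in the promoter of Iqd4 (AT2G26410), at 0.976% in wild-type plants and 36.6% in the mutant over 6 cytosines. It was chosen for naming after its values were seen.

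The lower share of the promoter regions was set against 3 other classes of CG regions that overlapped no CHG or CHH region. It exceeded that of regions on the arms annotated to gene bodies alone, of which 628 of 945, or 66.5%, were lower. The odds ratio was 2.35, with an adjusted p of 9.95e-07 by a two-sided Fisher exact test. It also exceeded that of 768 arm regions annotated both to a gene body and to a promoter, of which 71.4% were lower, with an odds ratio of 1.87 and an adjusted p of 0.000513. Promoter regions within 3 Mb of the centromere position had a lower share of 77.7% over 148 regions. That gap was not significant, with an odds ratio of 1.34 and an adjusted p of 0.299, and its direction turned (odds ratio 0.918) when the limit between arms and centromeres was set at 5 Mb. These p-values, with Benjamini-Hochberg adjustment over the 3 comparisons, count regions, which are not plants, so they describe the list and not the spread between plants.

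Methylation level moved with this comparison. The lower share fell with the mean level of both genotypes in every class, and the gap between promoters and gene bodies was widest at high levels. With mean levels of 50 to 100%, 35 of 53 promoter regions were lower, or 66.0%, against 30.4% of 207 gene-body regions and 29.7% of 138 genic and promoter regions. At mean levels of 20 to 50%, the shares were 82.5% of 103 promoter regions, 63.0% of 281 gene-body regions and 71.9% of 221 genic and promoter regions, the latter with an adjusted p of 0.0783 by Fisher's exact test. Under 20%, the shares were 90.0% of 110 promoter regions, 84.9% of 457 gene-body regions and 85.1% of 409 genic and promoter regions, and the test no longer separated them (odds ratios 1.60 and 1.58, both with an adjusted p of 0.332 by Fisher's exact test).

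**Figure D2:**
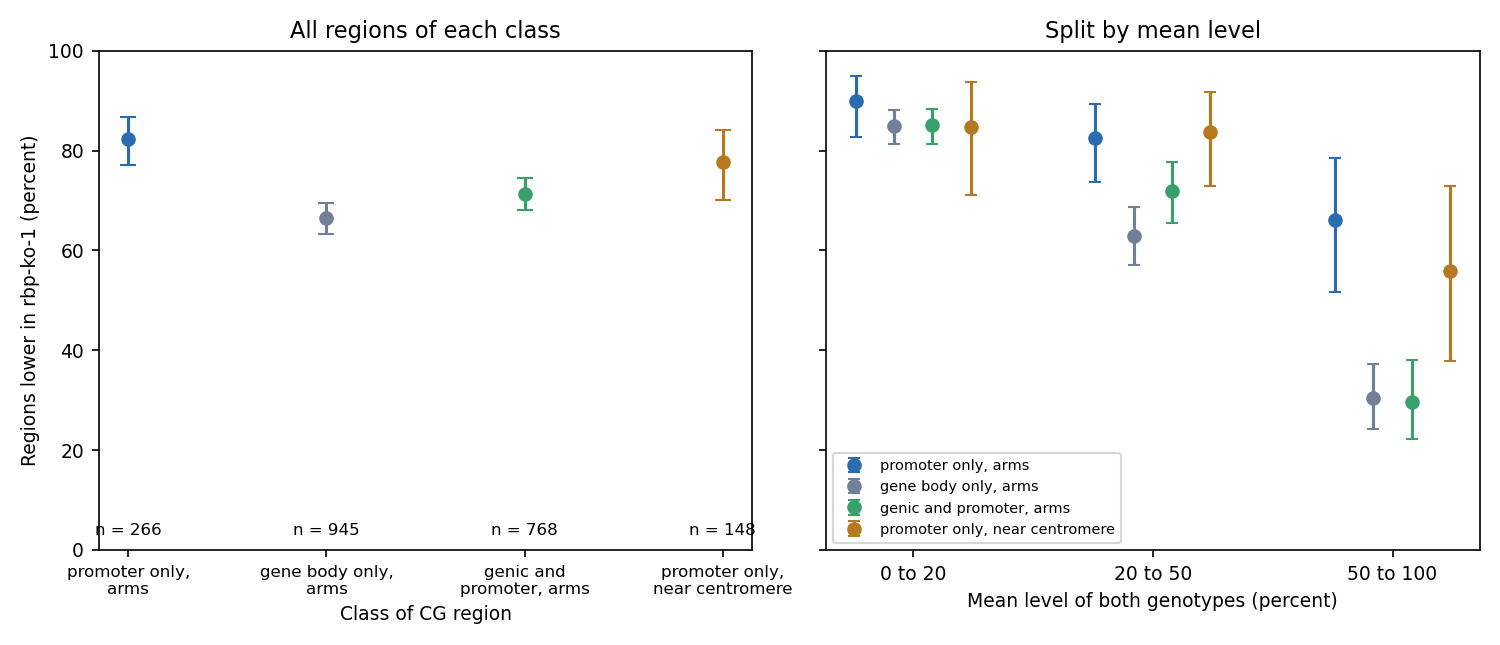
Percent of CG regions lower in rbp-ko-1 (vertical axis) in 4 classes, for all regions (left) and by the mean level of both genotypes (right, percent). Points are shares and bars are exact 95% intervals; the promoter regions of the arms reach 82.3% overall and stay at 66.0% where gene bodies reach 30.4%.

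The levels of the lower regions also differed between the classes. Lower gene-body regions had medians of 23.4% in wild-type plants and 2.31% in the mutant, with a median difference of −16.9 points, smaller in size than the −25.7 points of the promoter regions. Their median ratio of the rbp-ko-1 to the Col-0 level was 0.242, near the 0.227 of the promoter regions. Lower promoter regions near centromeres started at a like level, with a median of 39.2%, and ended at 11.6%, with a ratio of 0.362. In rbp-ko-1, 13.9% of those regions were under 2%, against 32.9% of the lower promoter regions of the arms. None of these medians was tested between classes.

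Among the lower regions with at least 10 cytosines, the 10 largest differences covered genes of several kinds. The largest was in the promoter of AT5G54350 (TAIR10, chr5:22068903-22069391), which had 64.7% CG methylation in wild-type plants and 5.36% in the mutant over 11 cytosines. The promoter of RIC5 (chr3:8371695-8372023), which encodes an effector of ROP GTPases that act in cell polarity, went from 66.6% to 15.1% over 24 cytosines. Its area statistic, a signed score of the authors that the labels do not define, was −333, the largest in size of all 266 regions. WRKY60 (chr2:10628728-10628916), a transcription factor of defence and abscisic acid responses, went from 50.7% to 1.04%. The region at AT5G39920 (chr5:15983711-15983801) was similar, at 51.4% and 1.92%. These last 2 regions, of 10 cytosines each, were close to unmethylated in the mutant.

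The promoter of NSI (chr1:11537106-11537163), which encodes an acetyltransferase, had 65.5% in wild-type plants and 16.5% in the mutant. At LBD30 (chr4:89279-89396), a LOB-domain transcription factor also called JLO, the level was 76.1% in wild-type plants and 27.9% in the mutant, and the same region is annotated to the promoter of AT4G03545. The other 4 of the 10 lay at AT3G28660 and AT3G28670 (shared), AT3G22053, AT3G50720 and AT5G38960. They had 53.9 to 65.9% in wild-type plants and 13.2 to 24.5% in the mutant. By the area statistic, 2 more regions joined RIC5. One is shared by RPL17B, a ribosomal protein gene, and AT1G08937 (chr1:25260929-25261324), and went from 61.3% to 25.6% over 32 cytosines. The other lies at AT4G13263 (chr4:7710590-7710752) and went from 37.8% to 1.28% over 18 cytosines.

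Among the higher regions with at least 10 cytosines, the largest difference was in the promoter of AT3G24760 (chr3:9039686-9039840), with 19.1% in wild-type plants and 60.2% in the mutant. A region of 14 cytosines shared by NRPC2 and RTL3 (chr5:18260119-18260231) went from 35.7% to 71.2%. NRPC2 encodes the second-largest subunit of RNA polymerase III, and RTL3 an RNase III-like protein. The promoter region of LBD27 (chr3:17663173-17663370), another LOB-domain transcription factor, went from 47.4% to 76.2% over 12 cytosines, opposite to that of LBD30. A further CG region of LBD27, not among the promoter regions described here, was lower. It had 44.0% in wild-type plants and 24.6% in the mutant over 36 cytosines. The promoter of OBE2 (chr5:19531389-19531688), a PHD-finger protein of meristem maintenance, had 50.3% in wild-type plants and 74.0% in the mutant over 29 cytosines.

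The endoplasmic reticulum calcium pump gene ECA1 had 45.3% in wild-type plants and 68.3% in the mutant. The region shared by TPR2, a co-repressor related to TOPLESS, and AT3G16820 went from 32.0% to 54.9%. A region at emb1441 and NIFU2, the latter a scaffold protein for iron-sulfur clusters in chloroplasts, had 50.7% and 76.3%. The last 3 of the 10, each shared by a pair of genes (AT5G06665 and ARAD2, AT3G09785 and AT3G62530, AT1G65200 and AT1G65210), had 23.4 to 59.2% in wild-type plants and 44.9 to 81.0% in the mutant. The highest area statistic among the higher regions, 232, was at AT5G55790 and AT5G55800, where 36 cytosines went from 63.3% to 80.5%. The 10 were picked by the size of the difference, and other higher regions with at least 10 cytosines ended low, such as that of GULLO1, with 4.76% and 11.9% over 15 cytosines.

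**Figure D3:**
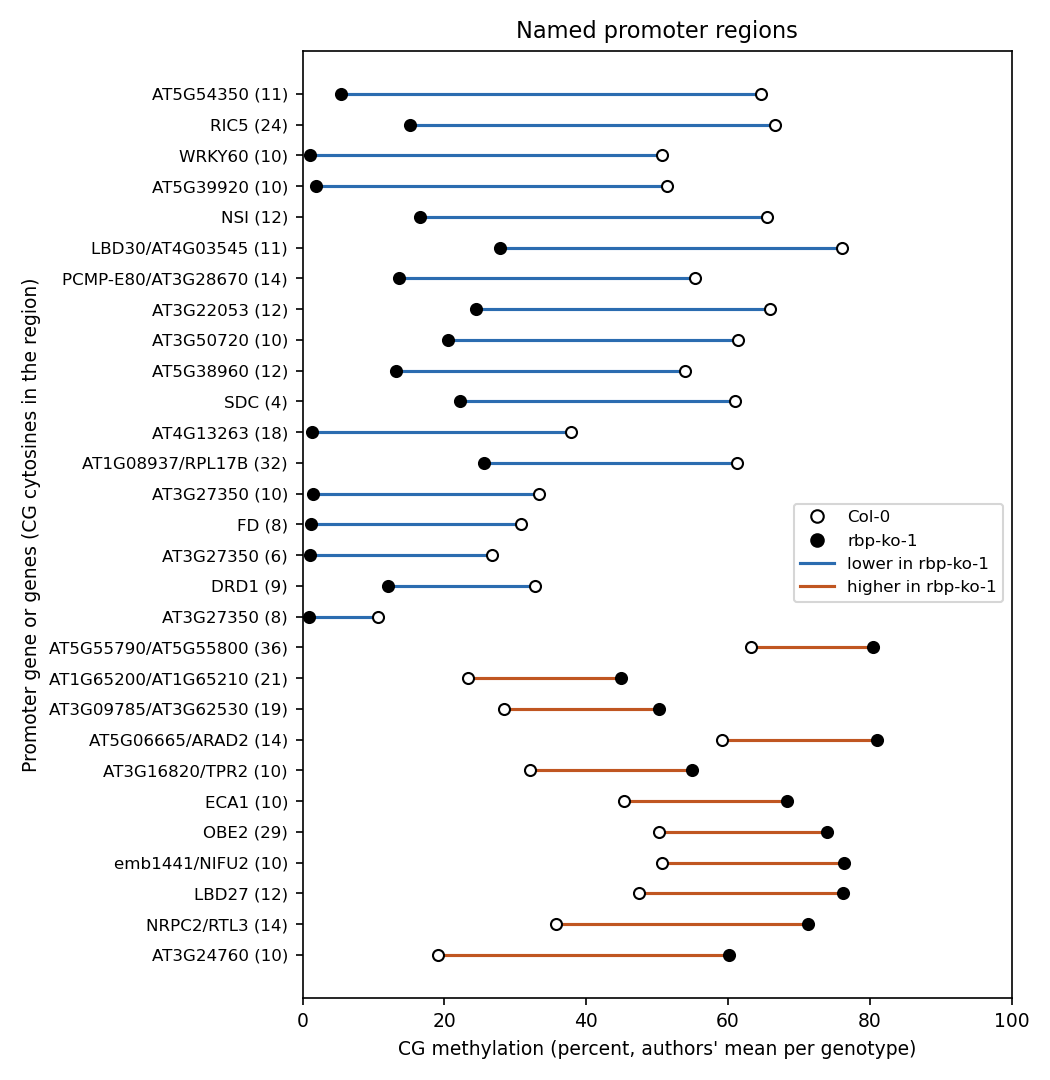
CG methylation in Col-0 (open circles) and rbp-ko-1 (filled circles) of the promoter regions named by rule, in percent, with the number of cytosines in brackets. Lower regions run to the left, many to near 0, and the higher regions end at 44.9 to 81.0%.

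Genes of 7 lists relevant to the study were looked up among the promoter regions. Only 3 of 137 list genes, or 2.19%, had a region in the promoter, against 1.12% of the 27562 protein-coding genes of the annotation, and with 3 genes nothing can be read from the gap. All 3 were lower. DRD1 (chr2:7096431-7096532), a SNF2-like chromatin remodeller that RNA-directed DNA methylation needs, had 32.7% in wild-type plants and 12.01% in the mutant over 9 cytosines. It was the only 1 of the 28 genes listed for that pathway. NRPB3, an RNA polymerase subunit gene whose higher region is described below, was not on that list. Genes outside the lists were not looked up for a part in the pathway. FD (chr4:17003894-17003993), the bZIP partner of the florigen FT, had 30.8% and 1.16% over 8 cytosines, and was the only 1 of 43 flowering-time genes. Its nearest CHG or CHH region lay 77905 bp away. Among all 9213 regions, of any kind, 33 of the 137 list genes had at least 1. These included 11 of the 28 genes of RNA-directed DNA methylation and 5 of the 43 flowering-time genes. The share over all genes was not computed for regions of any kind, and the lists were chosen with earlier results of these data known. Nothing is therefore read from these counts.

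SDC (chr2:7681513-7681588), an F-box gene known for being silenced by methylation of repeats in its promoter, had 61.0% in wild-type plants and 22.2% in the mutant. That region held 4 cytosines, the smallest number among the 266, and lay 19164 bp from the nearest CHG or CHH region. No promoter region was found for the 18 genes of maintenance or removal of methylation, the 14 heat response genes of the lists, the 8 genes related to RBP45 and RBP47 or the 10 genes of iron and nicotianamine transport. In the same order, 3, 4, 1 and 2 of these genes had a region in the list outside the 266. These counts have no share over all genes beside them either. A gene without an entry is not shown to have equal methylation.

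The 266 regions were annotated to the promoters of 350 genes, and 343 of these matched a RefSeq gene: 310 protein-coding genes, 22 long non-coding RNA genes and a few genes of small RNAs. Of the regions, 194 lay in the promoter of 1 gene and 72 in promoters of several. To describe the regions by gene role, 121 genes, some of them named only by locus tag, were placed in 10 groups after the values had been seen. This takes in 117 of the 266 regions. Each group held both lower and higher regions, and the lower ones made up 66.7 to 89.5% of a group, around the 82.3% of all the regions.

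Transcription factor genes held 16 lower and 3 higher regions, with medians of 39.2% in wild-type plants and 2.79% in the mutant for the lower ones. The promoter of BPE, a bHLH factor that limits petal size, had 64.4% in wild-type plants and 9.53% in the mutant. At AHL10, an AT-hook protein, the levels were 49.5% and 2.04%. LEC2, a regulator of embryo development, had more left, with 72.9% in wild-type plants and 50.2% in the mutant. The heat stress factor gene HSFA8 (shared with CCOAMT) was among the higher ones, at 0.856% in wild-type plants and 16.7% in the mutant.

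Genes for chromatin and chromosome proteins held 10 lower and 5 higher regions. SMC3, a cohesin subunit gene, had the largest decrease of all 266 regions, from 84.6% to 11.9%, over the minimum of 4 cytosines. A region shared by SMC1, another cohesin subunit gene, and EMB2360 went from 27.4% to 1.88% over 16 cytosines. FAS1, a subunit of the histone chaperone CAF-1, started low, at 8.47%, and was at 1.43% in rbp-ko-1. FIE, a Polycomb subunit gene that shares its region with GATA29, was higher, at 35.2% in wild-type plants and 62.0% in the mutant, and so was EAF1B, a subunit of a histone acetyltransferase complex, at 54.3% and 75.3%.

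Genes of RNA synthesis and processing held 6 lower and 2 higher regions, and both higher ones belong to RNA polymerase subunits. NRPB3, a subunit of RNA polymerase II, went from 22.1% to 47.2% over 5 cytosines, beside the NRPC2 region above. The lower ones included THO2, of an mRNA export complex, at 34.6% in wild-type plants and 9.95% in the mutant, and CSTF77, a polyadenylation factor, at 16.7% and 3.69% over 19 cytosines. Genes of the ribosome and translation held 8 lower and 2 higher regions. Of the higher ones, RPL37B (shared with AT1G52310) went from 2.35% to 40.4% and LSG1-1 (shared with PAP12) from 2.43% to 34.0%, so both were close to unmethylated in Col-0.

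Kinase and receptor genes held 12 lower and 2 higher regions and had the lowest starting level of the groups, with medians of 23.2% in wild-type plants and 2.43% in the mutant for the lower ones. CRK13, a receptor-like kinase, had 21.1% and 1.27% over 20 cytosines, and the calcium-dependent kinase gene CPK17 had 9.09% and 1.30% over 21. Genes of F-box proteins and the ubiquitin pathway held 17 lower and 2 higher regions. ARI3, a ubiquitin ligase gene, had 49.1% in wild-type plants and 1.19% in the mutant, whereas UBP14, a deubiquitinase gene, was at 73.8% and 58.2%.

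Transport genes held 9 lower and 2 higher regions. The higher ones were at ion pump genes, ECA1 and the plasma membrane proton pump AHA5 (54.3% in Col-0, 72.0% in rbp-ko-1, shared with AT2G08055). ACA7 (shared with AT2G22940 and AT2G22942), a calcium pump gene like ECA1, was lower, at 69.2% in wild-type plants and 37.5% in the mutant. The amino acid carriers AAP1 and LHT1 were both lower, at 74.1% and 51.0% for AAP1 and at 42.3% and 14.5% for LHT1. Genes of secreted peptides held 11 lower and 3 higher regions. LURE1.1, an attractant of pollen tubes, went from 59.4% to 12.01%, and ESF1.1 (shared with AT1G04817), a peptide of the endosperm, from 35.6% to 0.678%. The signal peptide genes CLE14 and RALFL14 (shared with FLY2) were higher. Their levels were 21.8% and 47.8% for CLE14 and 30.4% and 60.5% for RALFL14. PSK2 (shared with AtbZIP6), of the same group, was lower, at 16.7% in wild-type plants and 1.33% in the mutant.

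Cytochrome P450 and terpenoid genes held 7 lower and 3 higher regions. CYP72A14 had 49.2% in wild-type plants and 5.59% in the mutant. CYP714A1, whose product inactivates gibberellins, was higher, at 12.5% and 35.3%. Chaperone and heat genes held 4 lower regions and the higher one at HSFA8, and their lower regions were the most methylated of the groups, with medians of 70.5% in wild-type plants and 35.6% in the mutant. Outside the groups, TPPE, a trehalose-6-phosphate phosphatase gene, had the second-largest decrease of all, from 66.6% to 1.07% over 6 cytosines.

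**Figure D4:**
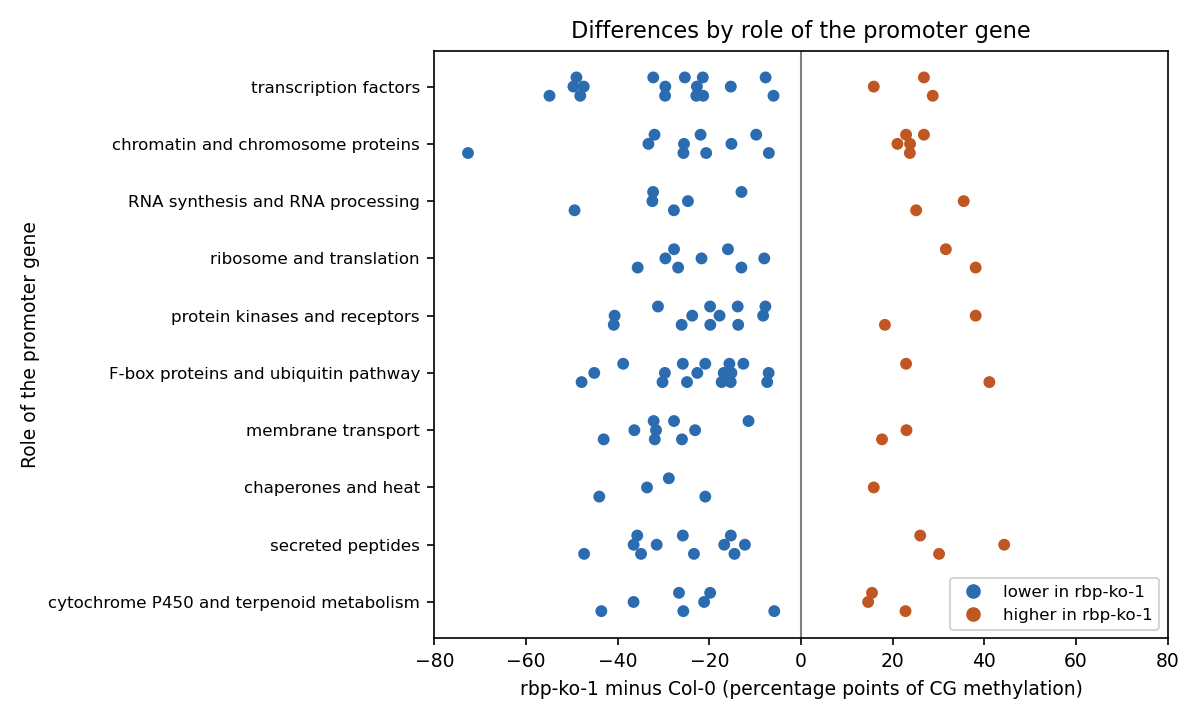
Difference in CG methylation (rbp-ko-1 minus Col-0, percentage points) of the promoter regions in 10 groups of gene roles, 1 point per region. Every group has points on both sides of 0 and most points to the left, with SMC3 farthest to the left at −72.7 points.

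Non-coding RNA genes were annotated at 27 of the regions, 21 lower and 6 higher, a lower share near that of all the regions. The largest increase of all 266 was in the promoter of MIR156A (chr2:10677882-10678075), the precursor of the microRNA miR156 that keeps plants in the juvenile phase, with 18.7% in wild-type plants and 82.1% in the mutant over 8 cytosines. A region at PNM1 and at AT5G60966 went from 20.1% to 64.4% over 4 cytosines. A region next to a tRNA-Phe gene on chromosome 1, shared with AT1G68970 and AT1G68980, went the other way, from 34.9% to 1.83%. Another CG region of the same genes, outside the 266, was higher, at 9.07% in wild-type plants and 26.8% in the mutant over 20 cytosines. A region on chromosome 4 was annotated to the promoters of 11 genes, among them snoRNA genes and the microRNA gene MIR4221, and had 49.1% in wild-type plants and 31.5% in the mutant.

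Most of the promoter regions were far from any non-CG region, with a median distance of 10617 bp for the lower and 10907 bp for the higher ones. By construction none overlapped one, but 46 of the 266 had a CHG or CHH region within 1000 bp. This held for 32 of the 219 lower regions, or 14.6%, and for 14 of the 47 higher ones, or 29.8%. That gap was noticed in the values and was not tested. The closest non-CG region was a lower CHH region for all 14 higher ones. For the 32 lower regions it was a lower CHH region in 28, a lower CHG region in 1 and a higher CHH region in 3. Since 97.4% of all CHH regions in the list were lower, nothing is read from these counts.

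Higher CG and lower CHH methylation thus lay side by side at several promoters. At MIR156A, the CHH region 112 bp away had 35.1% in wild-type plants and 20.6% in the mutant, while the CG region had 18.7% and 82.1%. At NRPB3, a CHH region 105 bp from the CG region had 29.1% and 18.4%. The CHH region 220 bp from the NRPC2 and RTL3 region had 8.53% and 2.81%, and the one 168 bp from the CYP714A1 region had 18.1% and 6.56%. At LBD27 the distance was 401 bp, and the CHH levels were 12.1% in wild-type plants and 4.48% in the mutant.

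Some lower CG regions also lay beside lower CHH regions. The one at SMC1 and EMB2360 had a CHH region 391 bp away with 20.2% in wild-type plants and 11.6% in the mutant. The regions nearest to the edge of the overlap rule were those of KCS21, DXS and AT2G18490, which had a CHH region within 14 bp. The CG level of KCS21, a fatty acid elongation gene, was 81.3% in wild-type plants and 75.04% in the mutant. DXS, a gene of plastid isoprenoid synthesis, had 72.9% and 51.7%. The lower share was 69.6% of the 46 regions within 1000 bp of a non-CG region, 88.6% of 79 at 1000 to 10000 bp and 83.0% of 141 beyond.

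**Figure D5:**
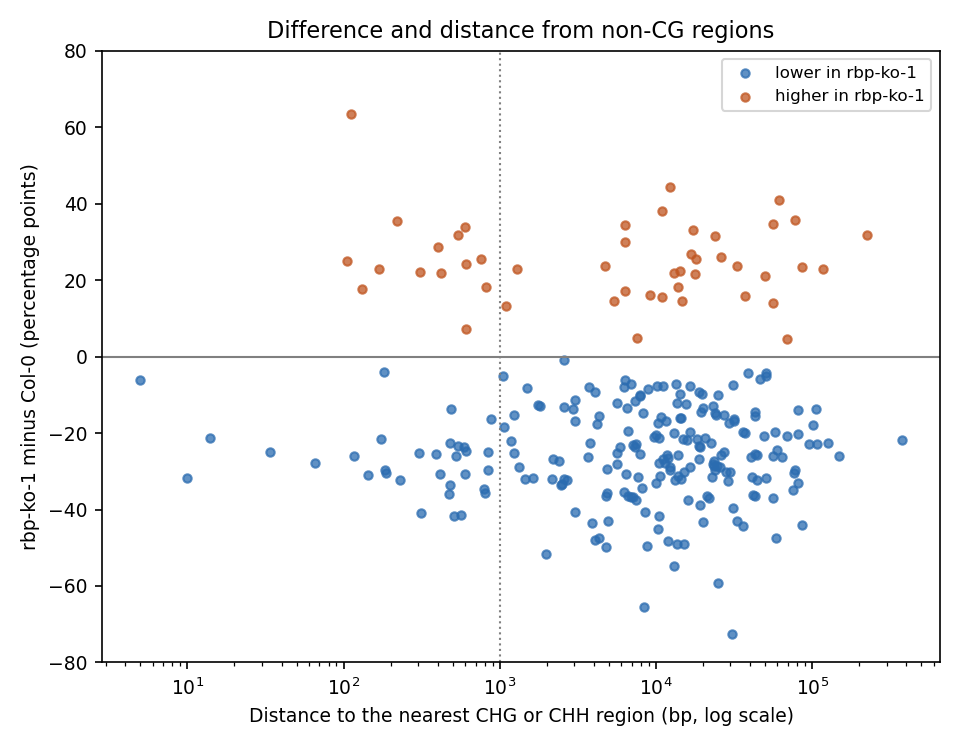
Difference in CG methylation (rbp-ko-1 minus Col-0, percentage points) of each promoter region against its distance to the nearest CHG or CHH region (bp, log scale). The dotted line marks 1000 bp, within which 32 lower and 14 higher regions lie; the highest point, at 112 bp, is MIR156A.

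Of the 350 genes, 102 had another region in the list: 50 had another CG region, 71 a CHH region and 7 a CHG region. The same shares over all genes were not computed. In genes with a lower promoter region, the other CG regions, 38 in all, were split between 22 lower and 16 higher. That is 57.9% lower. The lower share was 74.7% over all CG regions in the list, but 66.5% over the CG regions of the arms annotated to gene bodies alone. The 266 promoter regions, 82.3% of them lower, are left out of the 38 by construction. In genes with a higher promoter region, 5 of 8 other CG regions were lower and 3 were higher. Neither the 22 of 38 nor the 5 of 8 was tested against another share. Regions annotated to the same gene could thus differ in direction, and where in the gene or promoter the other region lay was not used. AHL10 had a second CG region that went from 33.9% in wild-type plants to 69.5% in the mutant, against 49.5% and 2.04% in the promoter region above. BGAL8, a beta-galactosidase gene, had 36.9% and 16.6% in the promoter region and 30.7% and 68.2% in the other. AT3G24760, the gene with the higher promoter region above, had another region at 15.9% in wild-type plants and 0.980% in the mutant. SMC1 was lower in both, with 64.9% and 17.7% in the second.

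Where a pair of the promoter regions lay within 1000 bp of each other, they had the same direction in 6 of 7 pairs. Since 82.3% of the 266 regions were lower, most unrelated pairs would match too, and nothing is read from this count. AT3G27350 was the only gene with 3 promoter regions, at 33.4%, 10.7% and 26.7% in wild-type plants and at 1.40%, 0.863% and 1.07% in the mutant. Both regions of ACD6, a regulator of defence and cell death, were lower, at 83.6% and 63.7% in wild-type plants and at 68.9% and 35.1% in the mutant. The exception was TPS26, a terpene synthase gene, where 1 region went from 62.8% to 78.3% and the next, 758 bp away, from 46.0% to 20.3%. Neighbouring regions share a promoter and are not independent.

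The distance of 3 Mb from the centromere position is a fixed line through the list. Just inside, the region of AT3G28925, 3.04 Mb away, had 65.0% in wild-type plants and 31.6% in the mutant. Just outside, the one of AT2G15180 and AT2G15185, 2.99 Mb away, had 32.5% and 10.7%, and the one of LCR11 and CRK33, 2.98 Mb away, had 53.9% and 73.6%. The smallest difference among the 266, at DOGL4, was −0.817 points (14.8% in Col-0, 13.97% in rbp-ko-1) over 21 cytosines, with an area statistic of −64.2.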

How the data were processed

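Genomic DNA of the 6 libraries was treated with bisulfite, per the labels. The submitters' processing notes name build TAIR10 and the tools Bismark, MethylDackel, Trimmomatic and FastQC, without versions. How regions were called and at which thresholds, the promoter length, the conversion rates and whether libraries came from separate plants are not stated there or in the labels. The deposited table holds 18828 entries, 1 or more per region and each with an annotated feature, merged here into 9213 regions. Each deposited level is a fraction, the authors' mean for a genotype, and is printed as a percent. The deposited area statistic, a score, served only to rank regions. Coordinates are the deposited ones. Centromere positions were taken as 15, 3.6, 14, 4 and 12 Mb on chromosomes 1 to 5.

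Shares carry exact Clopper-Pearson intervals. Lower shares were compared with two-sided Fisher exact tests and Benjamini-Hochberg adjustment over 3 tests at a threshold of 0.05, in Python 3.11.15 with SciPy 1.17.1 and statsmodels 0.14.6, checked on simulated data. The named regions were the 10 lower and 10 higher ones with the largest difference among those of at least 10 cytosines, 3 of each direction by area statistic, list genes, and genes with 3 regions. Genes outside this rule (those described by role, by RNA genes, by neighbours and by genes with other regions) were chosen after their values were seen. Regions, lists and tests were chosen with earlier results of these data known. Gene names and types came from the deposited table and RefSeq genes (assembly TAIR10.1). No genome sequence was used here. Alternatives are given in the closing section.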

Additional observations from a re-analysis of the deposited data

How the results depend on the processing

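Over 19 alternative settings, 107 of 133 recomputed values kept their direction and their side of the threshold, or their place within the interval. The lower share stayed between 79.9 and 85.4% except by mean level, where it was 90.0% (0 to 20%) and 66.0% (50 to 100%). The odds ratio against gene bodies was 1.99 to 4.44, and 1.60 at mean levels of 0 to 20%. Against genic and promoter regions it was 1.60 to 4.60, and no longer significant at 1.58 (0 to 20%) and 1.84 (20 to 50%). Against promoters near centromeres it became significant at 2.22 with at least 10 cytosines and 2.27 among the 123 promoter regions with the larger area statistics, and reversed at 0.918 beyond 5 Mb and 0.911 at mean levels of 20 to 50%, so this comparison supports no direction. The cause of these shifts was not tested. The median difference of the lower regions moved to −30.2 and −36.2 points with a minimum of 20 or 30 points, which selects on it, and to −16.8, −31.2 and −30.2 points in the 3 classes of mean level. The share of lower regions under 10% in rbp-ko-1 moved likewise to 43.7, 40.3, 97.0, 28.2 and 0%. List genes numbered 1 with a minimum of 30 points, among the 123 regions with the larger area statistics, beyond 5 Mb, without chromosome 2 and at mean levels of 0 to 20%, and 0 with at least 10 cytosines or at mean levels of 50 to 100%. Leaving out regions at a start or end site removed none of the 266, and the odds ratios against gene bodies and against genic and promoter regions became 2.38 and 1.89. The mean-level classes and the limit to regions of 1 gene were chosen after seeing the data. No paired analysis was possible because the table holds no value per library, and for the same reason no library could be left out. With depth unknown, levels near 0 cannot be told apart from incomplete bisulfite conversion.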
